A study of Mus musculus with 64 samples.

Results

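A set of 47 genes was nearly silent in libraries of mouse pancreatic tumor lines grown alone. The set was read in libraries of the same lines sorted after culture with fibroblasts. The genes were chosen from the deposited counts of 39017 genes, of which 25490 had a count in any library. Counts were divided by the library total and scaled in the usual way to CPM, and the 4 libraries of a line and culture were averaged. A gene was kept if its mean was at most 0.2 CPM in monoculture and at least 0.5 CPM in coculture in each of 8 lines, which left 52 genes. Symbols opening with Col, Hox, Mmp, Adam, Lox, Wnt, Sfrp, Fzd, Dkk, Ccl or Cxcl were then set aside, which removed Col5a2, Adam19, Adam23, Hoxb8 and Hoxb9. With the cultures exchanged, 0 genes passed the same limits. Because the rule used the difference between the cultures, the levels of the members in each culture are given as a description and were not tested.

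The lines were 7 clones, E, H, K, M, N, T and V, and the KPC1 line. The paper derives the clones from one tumor of a KPC mouse, a genetic model of pancreatic cancer with a mutant Trp53 allele (R172H) and Cre recombinase under the Pdx1 promoter, and assigns E, H and V to metabolic group 1 and K, M, N and T to group 2. The labels give the strain of all samples as C57BL/6 mixed. Each line was sequenced as 4 libraries from monoculture and 4 from tumor cells sorted by GFP after 48 h with fibroblasts, 64 libraries in all. The labels name neither the source of the fibroblasts nor a sort of the monocultures, so coculture and sorting cannot be told apart as sources of a difference between the cultures. Every line is a single clone or culture, and nothing in the labels says that its 4 libraries came from separate experiments, so that spread between them may be technical.

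Library totals ran from 11178721 to 21333683 counts, and each of the 64 libraries was most like another of its own line and culture. Epithelial keratins were abundant in both cultures, Krt8 averaging 995 CPM in monoculture and 782 CPM in coculture, whereas Epcam, an epithelial adhesion molecule, was at most 0.354 CPM in the mean of any line. At this depth a gene with 0 counts in a library could still have been present at up to 3 counts, and such limits cover counting error only.

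Fibroblasts are the cells that lay down and remodel the connective tissue of an organ. In pancreatic cancer they make up much of the stroma that surrounds the tumor glands, and they are recognized by secreted matrix proteins, surface glycoproteins such as Thy1 and Pdpn, and the protease Fap. When fibroblasts are grown with tumor cells and separated from them by a fluorescent label, RNA of the fibroblasts can reach the sorted fraction as whole cells, doublets, fragments or free RNA. Whether the members varied together between libraries, and in one ratio, was therefore asked.

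The members were ordered here by what their proteins do. Those secreted or held in the matrix numbered 11. Postn (periostin) is a matricellular protein that binds collagen and integrins, and Nid2 (nidogen) is a glycoprotein of basement membranes. Dcn (decorin) and Aspn (asporin) are small leucine-rich proteoglycans that bind collagen fibrils, Svep1 is a large extracellular adhesion protein, and Ptx3 is a soluble pattern-recognition molecule of the pentraxin family. Tll1 is a protease of the tolloid family, Slit3 a ligand of Robo receptors, Hgf the ligand of the receptor Met, Tfpi an inhibitor of the tissue factor pathway of coagulation, and Olfm2 a secreted olfactomedin-domain protein.

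A further 13 members act at the cell surface or in membranes. Thy1 is a glycoprotein anchored by a lipid, Pdpn (podoplanin) a mucin-type glycoprotein, and Fap a membrane-bound serine protease. Tenm3 is a teneurin, Gria3 a subunit of the AMPA glutamate receptor, Npy1r a receptor of neuropeptide Y, S1pr3 a receptor of sphingosine-1-phosphate, and Epha3 a receptor tyrosine kinase for ephrins. Sirpa binds the surface protein CD47, Jam3 is a junctional adhesion molecule, Slco3a1 an organic anion transporter, Dlk1 an imprinted membrane protein related to Notch ligands, and Nsg1 a protein of endosomes that is best known in neurons.

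Transcription factors numbered 7, among them the homeobox proteins Pknox2 and Lhx6, the forkhead factor Foxf1, the T-box factor Tbx3, Ebf3 of the early B cell factor family and the zinc-finger protein Bnc2. The other 16 members included Ptgis, which makes prostacyclin, Crabp1, which binds retinoic acid in the cytoplasm, the LIM-domain protein Fhl1, the small heat-shock protein Hspb8, the phosphodiesterase Pde1a, the cGMP-dependent kinase Prkg1 and the G-protein subunit Gnao1. Renbp, Elovl4, Wbscr17 and Gpx7 are enzymes of sugar, fatty-acid, glycosylation and peroxide metabolism. Prickle2 belongs to the planar polarity pathway, and Fez1, Brinp1, Hdgfrp3 and Fam217b complete the set. All 47 were protein-coding genes of GENCODE M21, spread over 16 chromosomes, and the only members within 1 Mb of each other were Fez1 and Pknox2 on chromosome 9.

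Promoter sequence is shown for 4 members that lead the results below by level (Postn) or by differences between lines (Crabp1, Svep1 and Ptx3). RefSeq windows on GRCm38.p6, from 250 bases before to 50 bases after a transcription start, were at hand for 33 of the 47 members, 2 of them under a newer symbol, giving 50 windows. Members without one included Jam3, Foxf1, Ptgis, Slco3a1, Sirpa, Fap, Gria3, Thy1, Pknox2, Dcn, Tbx3, Nid2 and Nsg1. Each stretch below is the 120 bases just before a start, read 5′ to 3′ on the gene's own strand. Capitals mark a match on either strand to 1 of 5 motifs: the TATA box (TATAAA), the box bound by NF-Y (CCAAT), the core of an Sp1 site (GGGCGG), the AP-1 site (TGANTCA) and the TEAD site (GGAATG). No match overlapped another in the stretches shown, and a match read on the opposite strand appears as its reverse complement. Postn lies at chr3:54360987-54361106 on the plus strand, Crabp1 at chr9:54764628-54764747 on the plus strand, Svep1 at chr4:58206597-58206716 on the minus strand and Ptx3 at chr3:66219767-66219886 on the plus strand.
Postn: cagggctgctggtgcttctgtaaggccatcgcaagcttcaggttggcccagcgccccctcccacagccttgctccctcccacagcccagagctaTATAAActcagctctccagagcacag
Crabp1: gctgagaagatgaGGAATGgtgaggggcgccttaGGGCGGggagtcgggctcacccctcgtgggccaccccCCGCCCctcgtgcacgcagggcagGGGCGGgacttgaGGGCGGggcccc
Svep1: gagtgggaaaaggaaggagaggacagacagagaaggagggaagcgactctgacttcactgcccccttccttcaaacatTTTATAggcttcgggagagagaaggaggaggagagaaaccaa
Ptx3: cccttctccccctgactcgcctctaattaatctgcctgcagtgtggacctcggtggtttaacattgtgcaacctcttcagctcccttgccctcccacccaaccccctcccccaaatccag

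Among these stretches, Postn and Svep1 each held 1 match to TATAAA, Crabp1 held 4 matches to GGGCGG and 1 to GGAATG, and Ptx3 held none of the 5 letter strings. The 120 bases before another start of Postn (chr3:54359147-54359266) and before that of Aspn (chr13:49544323-49544442), not printed here, held none either. Over the whole 300-base windows, TATAAA was found in 20% of the 50 member windows and 13.6% of all 32841 windows, and CCAAT in 36% and 37.4%. GGGCGG was found in 48% of member windows and 35.7% of all windows, GGAATG in 24% and 14.7%, and TGANTCA in 4% and 7.81%. The median ratio of observed to expected CpG was 0.446 in member windows and 0.384 in all windows. These shares are descriptions over few windows, several of them from the same gene, and a match of letters is not a bound site.

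In coculture the members ran from Postn, at 52.9 CPM on average, to genes near the limit of the rule. Per length of transcript, by the authors' RPKM values, Postn had the highest mean over the 32 coculture libraries at 5.75 RPKM, followed by Nid2 at 3.99, Thy1 at 3.62, Dcn at 3.48, Crabp1 at 2.88 and Pdpn at 2.70 RPKM. The transcription factors were lowest as a class, with a median of 0.140 RPKM over the 7 genes. The median was 0.691 RPKM for the secreted and matrix class, 0.378 RPKM for the surface class and 0.369 RPKM for the enzymes and other genes. In counts the set was top-heavy: Postn made up 30.1% of the summed coculture CPM of the members, and the 4 highest members together 52.1%.

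Postn was at 6.57 CPM in its lowest coculture library, 47.7 CPM in the median library and 136 CPM in the highest. In monoculture it had 5 counts in 3 of the 32 libraries, at most 0.188 CPM. The gene lies on chromosome 3, chr3:54361109-54391037 in GENCODE M21 on GRCm38. Its coculture libraries therefore all lay above its monoculture libraries, but they spread widely among themselves.

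Nid2 (chr14:19751265-19811787) was at 4.47, 19.2 and 39.2 CPM in the lowest, median and highest coculture library, and had 8 counts in 7 monoculture libraries. Thy1 (chr9:44043384-44048579) was at 1.08, 10.9 and 24.1 CPM and had 0 counts in monoculture. Dcn (chr10:97479609-97518143) was at 1.92, 6.62 and 23.1 CPM and had 9 counts in 6 monoculture libraries. For these 3 genes too the cultures did not overlap in any library.

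Farther down, Pdpn was at 0.746, 5.13 and 12.3 CPM in the lowest, median and highest coculture library, with 1 count in monoculture. Svep1 was at 1.70 CPM in the median library and 9.07 CPM in the highest, yet had 0 counts in replicate 1 of clone V. Lhx6, the lowest member by mean CPM, was at 0.127, 0.670 and 1.83 CPM. The lower members thus rested on few reads in single libraries.

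Other surface and secreted members stood between these. Tenm3 was at 1.07, 3.89 and 10.9 CPM in the lowest, median and highest coculture library, Gria3 at 0.834, 3.66 and 9.60 CPM, and Tfpi at 1.01, 2.92 and 8.88 CPM. Ptgis, the prostacyclin synthase, was at 0.678, 4.23 and 7.92 CPM, and its 4 monoculture counts came from 1 library. Slit3, Fhl1, Dlk1 and Pknox2 had 0 counts in all 32 monoculture libraries and medians of 2.12, 2.01, 1.42 and 1.39 CPM in coculture. Members with 0 monoculture counts were thus found among abundant and scarce genes alike, and in each class of function: 2 of the 11 secreted genes, 5 of the 13 surface genes, 2 of the 7 transcription factors and 5 of the other 16.

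The name given to the set, genes seen only in coculture, was not literally true of most members. In the 32 monoculture libraries 14 members had 0 counts, and the other 33 had at least 1, 374 counts in all against 86624 in coculture. In coculture 43 members had a count in every library. The lowest coculture library lay above the highest monoculture library for 39 members. Of the 25490 genes with a count, 0.271% did so, and since the rule selects for this separation nothing is read from the difference.

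Values near the limits of the rule show how it cuts a continuous range. Npy1r, Fez1 and Aspn were just inside the monoculture limit, at 0.199, 0.198 and 0.167 CPM in their highest monoculture line, and Nnmt, Slc4a8 and Lpl just outside it, at 0.212, 0.212 and 0.235 CPM. Elovl4, Slco3a1 and Lhx6 were just inside the coculture limit, at 0.522, 0.549 and 0.556 CPM in their lowest coculture line, and Fam13c, Sp100 and Lrrc17 just outside it, at 0.493, 0.484 and 0.466 CPM.

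The rule was also repeated on 3 replicate numbers and the result read in the fourth. The held-out libraries came from the same lines and cultures and may be technical repeats. Agreement was therefore all but built in, and the values are a description. Without replicate 1 it chose 47 genes, 43 of them members, and 44 of the 47 were higher in coculture than in monoculture in replicate 1 of all 8 lines. Without replicate 2, 3 and 4 it chose 54, 42 and 38 genes, of which 50, 42 and 38 were higher in the held-out library of all 8 lines. In the fit across all genes of a held-out number, only genes with enough counts in coculture passed the filter on low values, so their calls could hardly fail. Of the chosen genes 12, 11, 29 and 36 were tested for held-out numbers 1, 2, 3 and 4, and every one was called higher in coculture (edgeR's quasi-likelihood test, adjusted p under 0.1), beside 18.6%, 21%, 23.8% and 24.9% of all genes tested. The fraction of chosen genes that also met both limits of the rule in the held-out number was smaller, with 17 of 47, 15 of 54, 32 of 42 and 27 of 38 genes. In the fit over all 8 lines and both cultures, which the rule used and which is therefore only described, all 47 members were called higher in coculture, beside 27.2% of all genes.

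**Figure D1:**
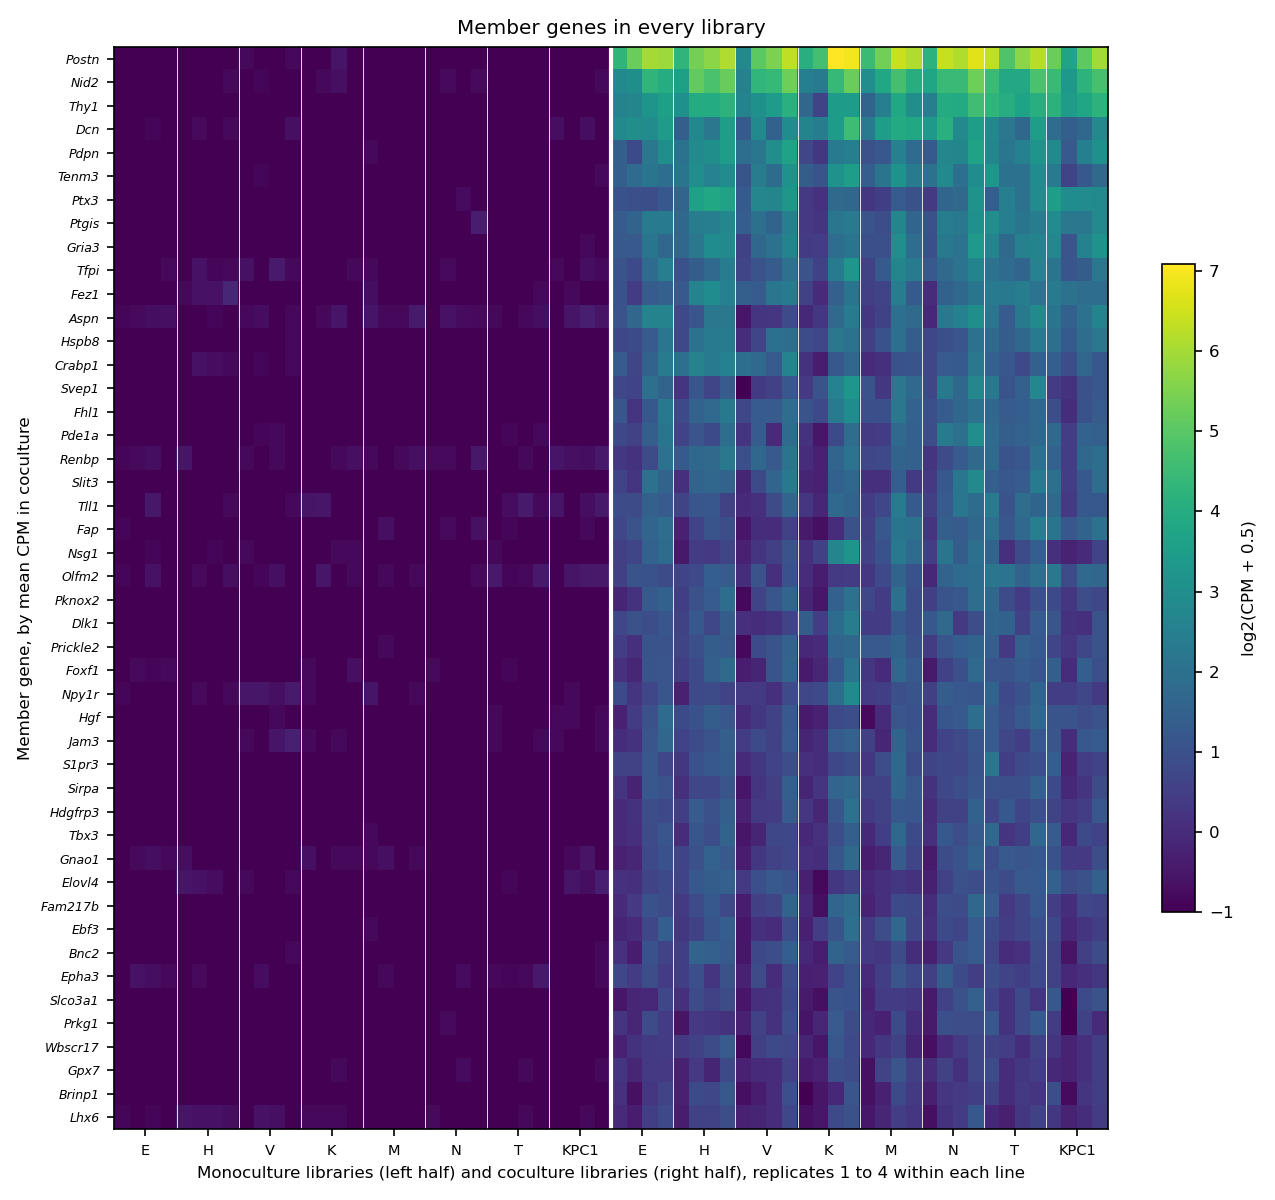
Level of 46 members in each of the 64 libraries as log2(CPM + 0.5), monoculture on the left and coculture on the right, with members ordered by mean coculture CPM and lines of 4 replicates between white rules. In coculture whole columns brighten or darken together, as in clone K, where replicates 3 and 4 stand above replicates 1 and 2 for most members.

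The members were high and low together in the libraries of a line. Summed over all 47, their level was between 0.130 and 1.64 CPM in the 32 monoculture libraries, with a median of 0.677 CPM, and between 51.2 and 343 CPM in the 32 coculture libraries, with a median of 183 CPM. The coculture sums rested on 771 to 5301 counts a library, so counting error was small beside the 6.71-fold range. In sorted bulk samples, fewer cells of a type and less RNA per cell cannot be told apart.

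By line, the mean summed level of 4 libraries was 141 ± 59.5 CPM (SD, n = 4) in clone E, 194 ± 74.1 in H, 148 ± 88.3 in V, 187 ± 149 in K, 158 ± 83.3 in M, 214 ± 104 in N, 203 ± 58.1 in T and 159 ± 58.2 in KPC1. The highest line mean was 1.51 times the lowest. Within a line the highest library was from 1.84 times (T) to 5.91 times (K) the lowest. Of the variance of the log2 sum, 9.49% lay between lines.

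Within lines the sum went with the replicate number in the labels. Replicate 4 held the highest sum in 7 of 8 lines and replicate 3 in the other, while the lowest was replicate 1 in 6 lines and replicate 2 in the other two. Replicate 1 ranged from 51.2 to 247 CPM with a median of 82.5 CPM, replicate 2 from 59.8 to 231 with a median of 122, replicate 3 from 147 to 286 with a median of 194, and replicate 4 from 183 to 343 with a median of 261 CPM. The ranges of replicates 1 and 4 overlapped only because T and KPC1 had high sums in replicate 1. Replicate number held 58.5% of the variance within lines. The labels do not say what a replicate number shares across lines, and its part in the level of the members was not tested. The sum did not follow the library total (r = 0.114 over 32 libraries, deviations from line means). From the sample numbers, 2 sheets of samples were inferred here, and they are not a batch that the labels name. The median sum was 183 CPM in the 22 coculture libraries of sheet 1 and 174 CPM in the 10 of sheet 2.

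**Figure D2:**
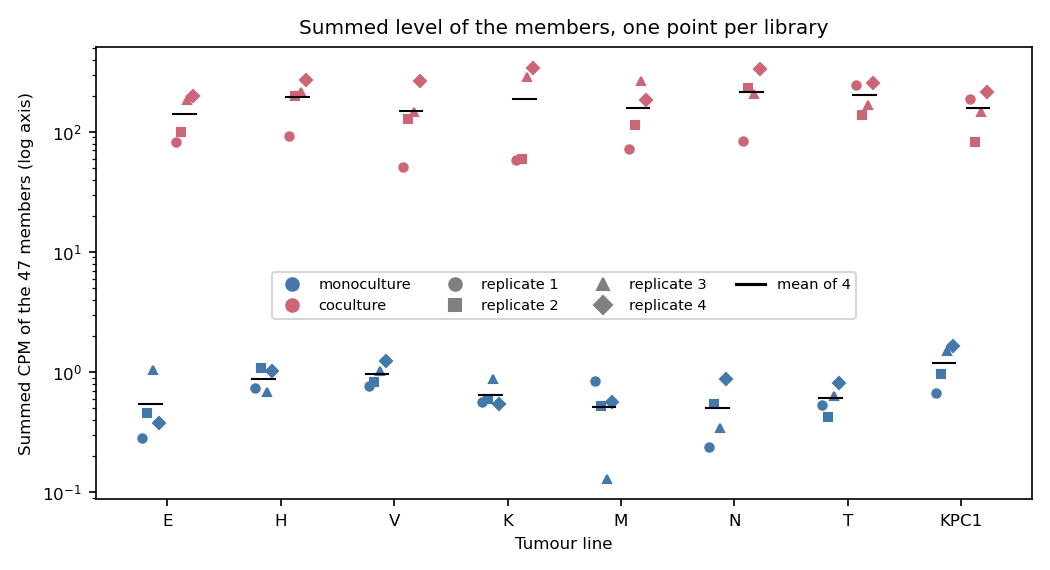
Summed CPM of the 47 members in each library on a log axis, by line, with culture as color, replicate number as symbol and the mean of 4 libraries as a bar. Coculture libraries sit between 51.2 and 343 CPM and monoculture libraries between 0.130 and 1.64 CPM, and in 7 of 8 lines the highest coculture point is replicate 4.

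Each member was then compared with the rest of the set. For each gene, log2(CPM + 0.5) was taken in the 32 coculture libraries, the mean of its line was removed, and Pearson's r was computed with the median of the members other than itself. These r values are descriptions: the points are libraries of shared depth, 4 to a line, and the members share the rule that chose them. Over the 1081 pairs of members every r was above 0, with a mean of 0.755 and a range from 0.345 to 0.947. Against the other members, r had a median of 0.887 and was at least 0.8 for 39 of 47 members (83.0%).

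The rest of the transcriptome was centered near 0. Among 13411 other genes tested the median r was 0.044, 90% of them lay between −0.428 and 0.564, and 149 genes (1.11%) reached 0.8. In the 7931 genes within the members' range of mean CPM the median was 0.034, and 1.59% reached 0.8.

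The highest values were those of Pdpn (r = 0.954), Nid2 (0.951), Thy1 (0.945), Lhx6 (0.936) and Ptgis (0.934), followed closely by Postn (0.927). Among the lowest were those of Dlk1 (0.594), Epha3 (0.688), Dcn (0.708) and Olfm2 (0.729). The classes of function were alike in this, with median r of 0.900 for secreted and matrix genes, 0.900 for surface genes, 0.900 for transcription factors and 0.877 for the rest. Lhx6, the member with the lowest mean CPM, stood near Pdpn, the fifth highest, so a high r was not confined to abundant members.

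**Figure D3:**
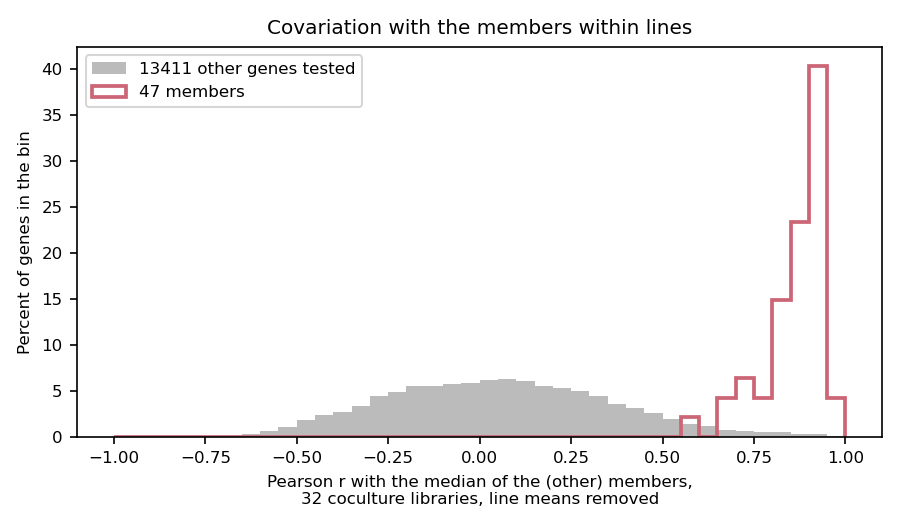
Percent of genes by Pearson r with the median of the members over 32 coculture libraries, line means removed, for 47 members (outline) and 13411 other genes tested (gray). Members lie between 0.594 and 0.954, and the other genes are centered on 0.044.

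A correlation does not say whether genes move in proportion. The slope of each member on the common level of the others was therefore fitted on a log scale within lines, by quasi-Poisson regression of its counts, an addition made after the correlations had been seen. A slope of 1 means that a member moves in proportion to the others. The median slope was 0.966, every one of the 47 intervals (95%) lay above 0, and 34 of them held 1. For other genes the median slope was 0.0031. A slope between 0.75 and 1.25 was found for 32 members (68.1%) and 156 other genes (1.16%). The common level was made from the members themselves, so a median slope near 1 and the contrast with other genes were largely built in. What the slopes describe is how far single members departed from the set.

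Thus Postn had a slope of 1.14 ± 0.087 (SE), Nid2 1.04 ± 0.077 and Thy1 0.875 ± 0.071, all with intervals that held 1. The intervals of 8 members lay below 1, among them Dlk1 at 0.488, Epha3 at 0.556, Elovl4 at 0.645, Dcn at 0.658, Crabp1 at 0.679, Olfm2 at 0.682 and Npy1r at 0.747. Between libraries of a line these members moved less than in proportion. Those of 5 members lay above 1: Brinp1 at 1.45, Slit3 at 1.36, Foxf1 at 1.33, Lhx6 at 1.26 and Nsg1 at 1.24.

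**Figure D4:**
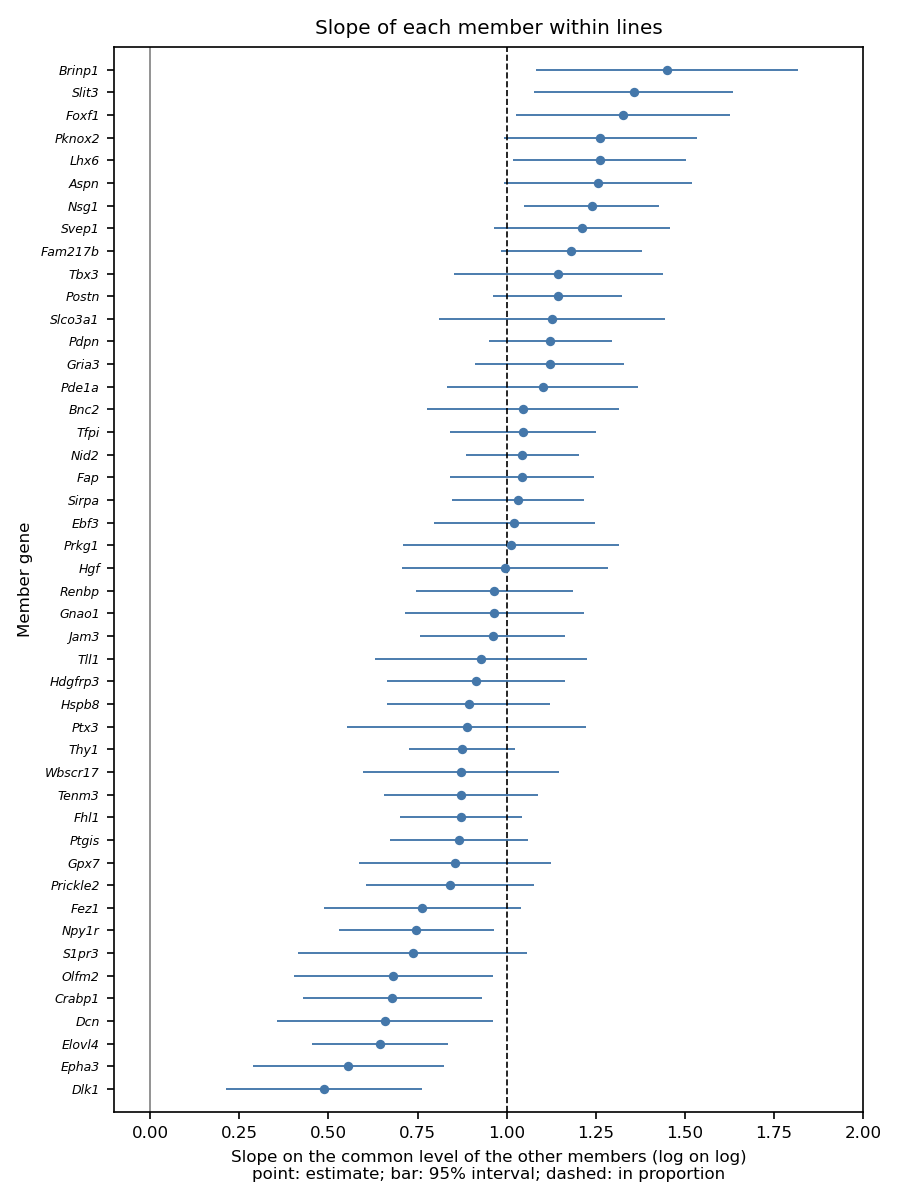
Slope of 46 members on the common level of the other members within lines in 32 coculture libraries, with 95% intervals, and a dashed line where a member moves in proportion to the rest. Slopes run from 0.488 (Dlk1) to 1.45 (Brinp1), and 34 of the 46 intervals shown hold 1.

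Dividing out the common level lowered the spread of nearly all members within lines. The common level was made from the members themselves, so this fall was largely built in. Scaling to the common level, the median over 43 members with a count in every coculture library, brought the median SD within lines from 0.903 to 0.463 on the log2 scale, and the SD was smaller for 46 of 47 members. Counting error alone would give a median SD of 0.364. The scaled SD was within 1.5 times the counting SD for 31 members and more than 2 times it for 6. Postn, with the most counts and the smallest counting SD, had the highest ratio, 5.93, and Dcn followed at 3.85. This ratio grows with the counts of a gene: the scaled SD of Postn itself was 0.387, that of Nid2 0.246 and that of Thy1 0.318, all below the median of the members.

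The 8 genes outside the set that varied most like it, by r with the median of the members over the 32 libraries, were Col5a2 (0.978), which the rule kept and its symbol removed, Thbs2 (0.973), Mrc2 (0.972), Slc43a3 (0.968), Col1a2 (0.967), Bgn (0.966), Eya4 (0.963) and Loxl1 (0.956). Col5a2, Col1a2, Bgn and Thbs2 encode a chain each of collagens V and I, biglycan and a thrombospondin, and Mrc2 a collagen receptor. Their slopes lay between 0.824 (Bgn) and 1.26 (Eya4). They differed from the members in monoculture, where Thbs2 reached 38.3 CPM and Bgn 24.8 CPM in the highest line, while Col5a2 did not exceed 0.112 CPM.

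Which members differed between tumor lines in coculture was tested next, since the rule set a floor in every line but did not use the differences between lines. The test was edgeR's quasi-likelihood F test over 8 lines with 4 libraries each, adjusted over 13458 genes. It called 14 of 47 members (29.8%) at an adjusted p under 0.1, beside 93.8% of all genes tested and 94.3% of the other genes in the members' range of CPM. Those called were Thy1, Dcn, Pdpn, Ptx3, Fez1, Aspn, Crabp1, Svep1, Fap, Nsg1, Olfm2, Dlk1, Npy1r and Elovl4. For Postn (adjusted p = 0.705) and Nid2 (adjusted p = 0.391) no difference between lines was called. This fit left out the replicate number. With the number as a block, edgeR called 25 members, beside 94.9% of all genes. Nid2 was then called (adjusted p = 0.0701) and Postn was not (adjusted p = 0.345).

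Ptx3 gave the smallest adjusted p (1.32e-05, edgeR). Its level was 10.9, 7.07, 6.98 and 6.73 CPM in replicates 1 to 4 of KPC1 and 2.64, 11.9, 13.6 and 12 CPM in H, against 0.723, 0.901, 2.08 and 1.49 CPM in M and 1.54, 1.46, 1.43 and 1.84 CPM in E. All 4 libraries of KPC1 and of H thus lay above all 4 of M and E. Fap (adjusted p = 0.000222) was at 3.93, 1.79, 2.51 and 3.61 CPM in KPC1 and at 0.257, 0.136, 0.529 and 1.49 CPM in K, without overlap.

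The same test was then run with each library scaled to the common level of the members, which asks whether a member keeps the ratio of the set in every line. As planned, with the spread shared across all genes, it called 7 of 47 members at an adjusted p under 0.1 (Dcn, Ptx3, Aspn, Crabp1, Svep1, Fap and Nsg1), beside 41.5% of all genes tested. The values that follow come from a changed fit, in which each gene kept its own spread, adopted after a trial on simulated counts. In this form 26 of 47 members (55.3%) were called, beside 31.8% of all genes tested, 36.9% of other genes in the members' range of CPM and 77.2% of the 149 other genes whose r with the members was at least 0.8. All genes were divided by the members' common level, which most of them did not follow. Without this scaling 93.8% of all genes were called. The shares over all genes and over genes in the members' range are therefore no like background for the 26. The count of members depended on the fit, and it was 16 with DESeq2, where 39.5% of all genes were called. It was 16 in sheet 1 alone, 14 without replicate 2 and 16 without replicate 3. The share of all genes is not given beside these last counts, so they are not read as particular to the members.

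Aspn, Crabp1, Fap, Nsg1, Ptx3 and Svep1 were called under each of the 22 settings tried. Relative to the common level, their lines differed by between 1.92 (Crabp1) and 2.66 (Svep1) on the log2 scale from the lowest to the highest. Over the 26 called members this range had a median of 1.42 and ran from 0.70 for Nid2 to 2.66. All 14 members called on library totals were among the 26.

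Fap departed most surely from the ratio of the set (adjusted p = 1.43e-08, edgeR). Its log2 level relative to the common level and to its mean over lines was 0.99 ± 0.25 (SD, n = 4) in KPC1, 0.80 ± 0.30 in M, 0.73 ± 0.24 in E and 0.73 ± 0.30 in T, but −1.30 ± 0.57 in K, −1.14 ± 0.10 in V and −0.90 ± 0.44 in H. Relative to the other members, Fap was thus low in K, V and H and high in KPC1, M, E and T.

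Nsg1 (adjusted p = 1.41e-07) showed another order. It was at 1.20 ± 0.57 in K and 0.86 ± 0.18 in M, and at −1.38 ± 0.39 in H and −1.17 ± 0.44 in KPC1. In CPM it was at 0.577, 1.02, 5.89 and 8.55 in replicates 1 to 4 of K and at 0.562, 0.358, 0.477 and 1.04 in KPC1, so that these lines overlapped in CPM, while on the scaled measure all 4 libraries of K lay above all 4 of KPC1.

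Ptx3 (adjusted p = 1.80e-05) was at 1.27 ± 0.61 in KPC1, 1.03 ± 0.60 in H and 0.96 ± 0.23 in V, against −1.23 ± 0.10 in M, and had a range of 2.50. Svep1 (adjusted p = 0.000349) was highest in K at 1.11 ± 0.49 and lowest in V at −1.56 ± 1.75, where 1 library had 0 counts. Aspn (adjusted p = 0.000196) was highest in E at 0.86 ± 0.37 and lowest in V at −1.53 ± 0.17. Crabp1 (adjusted p = 0.000261) was highest in V at 1.01 ± 0.88 and lowest in M at −0.91 ± 0.33. Among these members of one class, clone V was thus high in Ptx3, behind KPC1 and H, and lowest in Svep1 and Aspn.

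In replicates 1 to 4 of clone K, Postn was at 16.6, 25.2, 136 and 122 CPM, Dcn at 5.77, 4.81, 10.3 and 23.1 CPM and Thy1 at 2.69, 1.08, 10.3 and 10.2 CPM. In KPC1, Postn was at 37.6, 12.6, 33.1 and 62.5 CPM, Dcn at 3.25, 2.24, 2.81 and 6.55 CPM and Thy1 at 18, 10.3, 13.4 and 18.4 CPM. The highest library of each of the 3 genes was replicate 3 or 4 in both lines. Of the KPC1 libraries, 3 of 4 lay above all 4 of K in Thy1, and 3 of 4 lay below all 4 of K in Dcn.

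The 4 given markers of fibroblasts departed from the common ratio over smaller ranges than Fap, Nsg1 and Ptx3, and not in the same lines. Thy1 (adjusted p = 0.000376) was highest in KPC1 at 0.58 ± 0.30 and lowest in K at −0.83 ± 0.55. Dcn (adjusted p = 0.00466) and Postn (adjusted p = 0.0181) were the reverse of this, Dcn at 0.86 ± 0.58 in K and −0.91 ± 0.50 in KPC1, and Postn at 0.61 ± 0.37 in K and −0.47 ± 0.40 in KPC1. Nid2 (adjusted p = 0.0209) differed by 0.70 between V and E. Across the 22 settings the adjusted p ran up to 0.504 for Thy1, 0.172 for Dcn, 0.671 for Postn and 0.945 for Nid2.

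Lines K and KPC1 stood at the ends most often. One of them was the highest or lowest line for 17 of the 26 called members. In the fit without K, 18 members were called in place of 26. The share of all genes is not given beside that count, so the change is not read as particular to the members. Postn, Dcn, Fhl1 and Tenm3 were highest in K and lowest in KPC1, and Fap, Elovl4, Thy1, Ptgis and Gria3 were highest in KPC1 and lowest in K. By class, 8 of the 11 secreted and matrix members, 9 of the 13 surface members, 7 of the 16 enzymes and other genes and 2 of the 7 transcription factors (Ebf3 and Bnc2) were called, and the members with the largest adjusted p were Foxf1 (0.839), Brinp1 (0.809), Pknox2 (0.772), Slco3a1 (0.663) and Tbx3 (0.652). For those genes no departure from the common ratio was detectable at their depth.

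**Figure D5:**
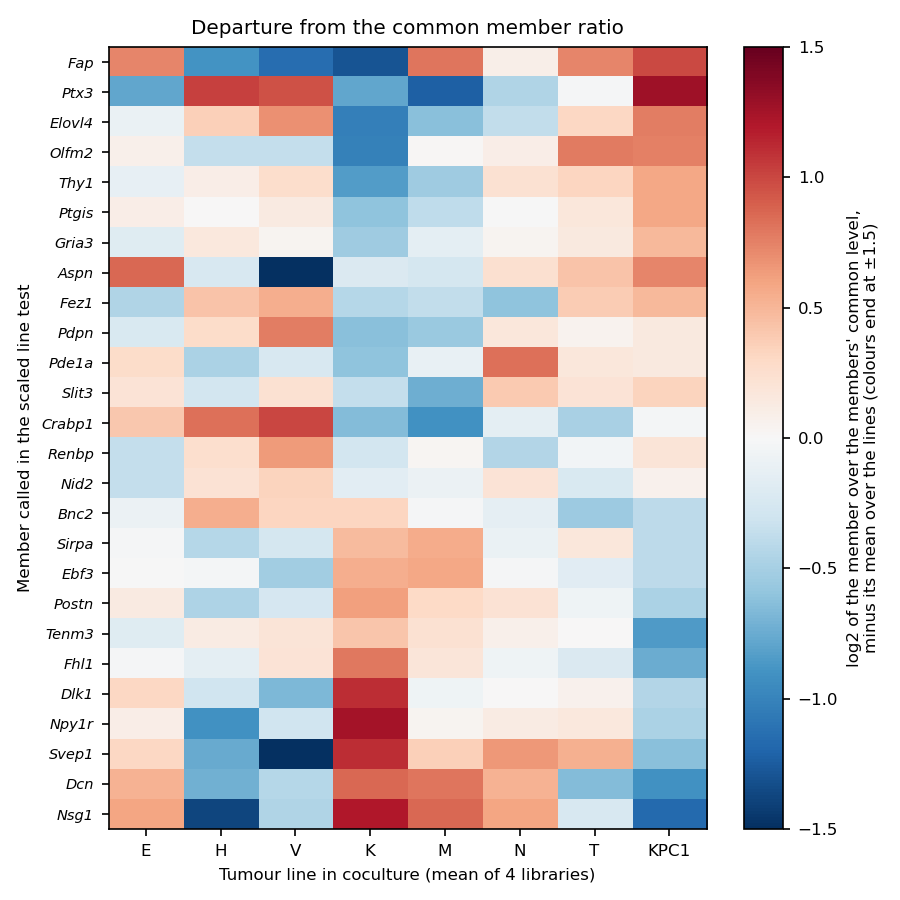
Mean log2 level of the 26 called members relative to the common level of the members, minus the mean over lines, in each line in coculture (mean of 4 libraries, colors end at ±1.5). The 7 members at the top, Fap to Gria3, are low in K and high in KPC1, and the 8 at the bottom, Postn to Nsg1, are high in K and low in KPC1.

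The metabolic groups of the paper were compared last, with the counts of 4 libraries summed for each clone and KPC1 left out, 3 clones against 4. At an adjusted p under 0.1, edgeR's quasi-likelihood test called 0 of 47 members, beside 0.00679% of 14737 genes. An unadjusted p under 0.05 was reached by 5 members: Svep1, Postn, Nsg1 and Npy1r, which were lower in group 1 by log2 fold changes of −1.23, −0.50, −1.17 and −0.94, and Crabp1, which was higher by 1.18. Their adjusted p values from edgeR were 0.581 or more. The share of all genes under the unadjusted cut was not taken, so nothing is read from the count of 5 or from its directions. DESeq2 called 1 member, Svep1 (adjusted p = 0.0828), beside 1.21% of all genes. Over the 47 members 19 were higher in group 1, and the median log2 fold change was −0.14, a description without the same values over all genes.

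Gene lists of cell types were read beside the members to see which other genes came up with them in coculture. Of 34 fibroblast genes, 5 are members (Postn, Thy1, Dcn, Nid2 and Fap). Of the 29 tested in the comparison of the cultures over 8 lines, 21 were called higher in coculture and 2 lower (Sfrp1 and Twist2), beside 27.2% and 27.4% of all genes. Without the 5 members, which the rule made higher in coculture, 16 of 24 were higher and 2 lower, with a median log2 fold change of 2.36 against −0.00089 over all genes. Fbln1, Fbln2, Twist1, Col5a1, Cxcl12 and Pi16 were called in neither direction, Fbln2 averaging 636 CPM in monoculture and 667 CPM in coculture.

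The non-member fibroblast genes varied with the members in part. Over 24 of them tested in coculture the median r was 0.752, and 18 reached 0.5, but only 8 had a slope above 0.75. Bgn had a slope of 0.824, Col1a2 0.958 and Fbln5 0.818. Col1a1 had a slope of 0.917, Pdgfrb 0.438 and Prrx1 0.230, and the lowest was that of Fbln1, at −0.28. Lum, which encodes lumican, averaged 0.103 CPM in coculture, and Tcf21 had 0 counts.

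Of 14 contractile and pericyte genes 7 were tested and 5 were higher in coculture. Acta2, the smooth-muscle actin of myofibroblasts, averaged 0.156 CPM in monoculture and 14.9 CPM in coculture, with r = 0.676 and a slope of 0.639, and Notch3 had r = 0.832. Rgs5, Kcnj8 and Abcc9, which mark pericytes, were at or near 0 in both cultures, none above 0.132 CPM in the mean of a line in coculture.

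Markers of other cell types were read the same way. No endothelial, immune, epithelial, mesothelial, skeletal-muscle or neural gene tested in coculture reached r = 0.5. Of 12 endothelial genes 4 were tested, 2 were higher (Kdr and Egfl7) and 1 lower (Pecam1), and the defining genes Cdh5, Tie1, Cldn5 and Sox17 were at or near 0 in both cultures. Of 11 immune genes only Cd68 had enough counts. It averaged 10.9 CPM in monoculture and 27.1 CPM in coculture, with r = 0.315, whereas Ptprc, the common leukocyte antigen, was at most 0.118 CPM in the mean of any line in coculture, and C1qa, C1qb, Tyrobp and Cd3e had 0 counts in all libraries. Of 14 epithelial genes 10 were tested, 1 was higher (Sox9) and 4 lower (Krt8, Krt19, Elf3 and Grhl2). Among 8 mesothelial, 8 skeletal-muscle and 8 neural genes, 1, 2 and 3 were tested and 0, 1 (Mylpf) and 1 (Tubb3) were higher. Summed over the non-member genes, the fibroblast list ranged from 575 to 3040 CPM in monoculture and from 931 to 4175 CPM in coculture, and the contractile list from 0.958 to 36.5 CPM and from 11.1 to 70.1 CPM. The endothelial list ranged from 1.08 to 16.8 CPM and from 2.53 to 18.7 CPM, and the immune list, nearly all of it Cd68, from 2.63 to 20.9 CPM and from 9.66 to 59.2 CPM. Whether the reads of the members came from fibroblasts in the sorted fraction or from the tumor cells was not tested, since no library of the fibroblasts was analysed here.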

How the data were processed

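Polyadenylated RNA of 64 samples was sequenced by the authors as strand-specific paired-end libraries of 76 bases. The authors deposited raw counts of reads per gene, made with featureCounts on mm10 per the submitters' processing notes, and a table of RPKM values, in which the authors divided reads by gene length and library total. The aligner, the annotation and the versions are not given in the sources used here. Sorted samples came from coculture with fibroblasts, and groups were taken from the clone and culture in the labels, with metabolic groups from the paper.

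Counts were analysed with edgeR 4.0.16 in R 4.3.3 (quasi-likelihood F test, TMM normalization, filterByExpr, Benjamini-Hochberg adjustment over all genes tested, threshold 0.1), with DESeq2 1.42.0 and limma 3.58.1 as alternatives. For the test scaled to the members, the median ratio of 43 members replaced TMM, and each gene kept its own spread, a departure from the planned fit, which missed changed members when tested on simulated data; the count of the planned fit is given beside it. CPM are counts over library totals, and a pseudocount of 0.5 CPM was used for logs. Promoter windows were RefSeq's on GRCm38.p6, and positions GENCODE M21's. Members named with values are the 4 given markers, the 20 highest in coculture, those at the ends of r and of the scaled test, those at the limits of the rule and those called between groups. The members, gene lists and tests were chosen with earlier results of these data known. Library totals of at least 11178721 counts put 3 counts under 0.5 CPM. A few genes, 1 of them a member, are counted but not reported by name.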

Additional observations from a re-analysis of the deposited data

Results flagged for a closer look

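Dixon's test for a single outlying library was applied to 80 groups of 4 coculture libraries, covering the summed level of the members, the 5 members with the smallest p in the scaled test and the 4 given markers. The gap of a library to its nearest neighbor, divided by the range of the group, exceeded the 95% critical value for 4 samples in 2 groups, where chance gives about 1 in 20. Both were of Ptx3. In clone H, Ptx3 was at 2.64 CPM in replicate 1 and between 11.9 and 13.6 CPM in the other 3 libraries, a gap of 0.844 of the range. In KPC1 it was highest in replicate 1, at 10.9 CPM against 6.73 to 7.07 CPM, a gap of 0.918. In clone H the summed level of the members was also lowest in replicate 1. The call of Ptx3 between lines held without replicate 1.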

How the results depend on the processing

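The rule kept 47 genes, 22 with a coculture minimum of 1 CPM, 14 with the same limits on RPKM and between 38 and 54 without a replicate number. The mean pairwise r of the members was between 0.699 and 0.791 without a line or a replicate number and 0.639 in a replicate block, with replicate-number means removed as well, where the median r with the other members was 0.7995. Samples with the same number in different groups deviated together weakly on average (mean r = 0.101 over 480 pairs, from −0.465 to 0.553, against −0.034 for other numbers). Yet 48 of 64 libraries correlated best with their own number, and replicate number held 58.5% of the variance of the members' sum within lines. The main line tests left the numbers out, so differences between numbers counted there as spread within lines. With the replicate block, 25 members differed between lines in place of 14 (94.9% of all genes), Nid2 among them (adjusted p = 0.0701, edgeR) but not Postn (0.345), 30 in place of 26 on the scaled measure, and 25 fibroblast genes were higher in coculture in place of 21. The scaled count of 26 was 16 in sheet 1 alone, 16 with DESeq2, 7 in the planned form with the spread shared across all genes, which the fit with separate spreads replaced after a trial on simulated counts, and between 14 and 20 without a replicate number. The cause was not tested, except that fewer samples entered sheet 1 and the fits without a number. Where no share of all genes is given beside a scaled count or the count of fibroblast genes, the change is not read as particular to those genes. Between the groups DESeq2 called 1 member in place of 0. In held-out replicates 1 and 2 DESeq2, which filters less, called 47 and 54 of the chosen genes in place of 12 and 11. No result reversed. In the other 135 recomputed values, counts stayed within 1.5 times the first. Values of r, of slope and of scaled over counting SD stayed within the SD of that measure over the members. Single named members were less stable: 118 calls were lost and 36 gained, and 39 values of r moved by that SD or more. The other 2425 values kept their reading. In the scaled test Dlk1 was called in 6 of 22 settings, Bnc2 in 8 and Tenm3 in 10. Aspn, Crabp1, Fap, Nsg1, Ptx3 and Svep1 were called in all 22. The share of TATAAA was 18.2% with the first window of each gene, in place of 20% of member windows. Coculture libraries held as few as 0 counts of the lowest members, which limits what single libraries of these genes show.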
